A study of Mus musculus with 8 samples.

Results

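A set of 6 genes of the choice between the CD4 and CD8 T cell lineages was examined, namely the coreceptors Cd4, Cd8a and Cd8b1 and the transcription factors Zbtb7b, Runx1 and Runx3, out of 21624 protein-coding genes whose methylation was tested. Each locus was the gene body with 10 kb added on either side (GENCODE M21, GRCm38), and a CpG counted when it had at least 5 reads in all 4 files of the series. Of the 7129 CpGs of the reference in the 6 loci, 6736 (94.49%) met this.

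CD4 and CD8 are surface proteins that help the T cell receptor to bind MHC class II and class I molecules, and CD8 is built from the products of Cd8a and Cd8b1. Thymocytes pass through a stage that carries both coreceptors and then keep one. Zbtb7b encodes ThPOK, the factor that commits thymocytes to the CD4 lineage. Runx3 drives the CD8 lineage and silences Cd4, and Runx1 acts in earlier thymocytes and in the development of B cells. Methylation of CpGs at promoters and enhancers is usually low where these elements are in use. B cells express neither coreceptor.

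The assay was whole-genome bisulfite sequencing. Bisulfite leaves methylated cytosines unconverted, and a methylation level is the percentage of reads in which the cytosine stayed unconverted. Hydroxymethylated cytosines also stay unconverted and cannot be distinguished. The cells were splenic CD43- B cells, a resting population, and naive CD4+CD62L+ T cells from C57BL/6J mice aged 6 to 8 weeks, with several animals pooled per sample and no genetic change or treatment named in the labels. The T cells had been enriched by removing cells that carried CD8a, B220, CD25 and other markers, so cells with surface CD8 were depleted by design. There were 8 samples in 4 groups of 2, each group 1 cell type of 1 sex, and 1 file per group. Whether a file holds both samples of its group or 1 of them is not stated, so no spread within a group could be measured, and the female and male files are the 2 measurements of a cell type. Nothing states that the files came from separate experiments, so p-values measure only the spread between these files. Where 4 values are given in a row, they are those of B and then T cells of females, followed by B and then T cells of males.

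The files held 278275973, 339923001, 309917919 and 333249103 autosomal CpG reads, a mean depth of 14.6, 17.7, 16.1 and 17.3 reads per CpG. The autosomal level was 80.7%, 79.5%, 79.7% and 79.7%. The cell type labels were checked at annotated starts. Of the 7 B cell genes reported, 6 had a start called lower in B cells (Cd79a, Cd79b, Ms4a1, Cd22, Blk and Fcer2a, not Cr2). All 8 T cell genes tested had a start called higher in B cells (Cd3d, Cd3e, Cd3g, Cd2, Cd5, Cd6, Lck and Thy1, of which Lck is also among the genes listed for comparison at the end). None of the 3 NK cell genes and none of the 4 myeloid genes had a called start. The start of the myeloid gene Lyz2 was lower in B cells, at 41.5%, 64.1%, 50.7% and 66.7%. Its mean difference was -19.3 points (adjusted p = 0.01705 by the quasi-binomial model described below). This passed the p-value threshold but fell just short of the difference required for a call. Across the 12 starts of the B cell genes the median level was 28.6%, 82.3%, 23.9% and 80.8%, and across the 12 of the T cell genes it was 70.5%, 10.6%, 65.8% and 10.9%.

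The sequences below are a selection by the rules given at the end. Left out, among others, were window stretches of Cd8b1 and Zbtb7b that differed by 84.9 and 77.8 points. The printed sequences were read from the RefSeq copy of GRCm38 on the strand of the gene, and capitals mark CpGs. The 250 bases before the starts of Cd4, Cd8b1 and the internal Zbtb7b start are shown because these starts were called. In Cd4 (chr6:124888222-124888471) the 9 CpGs had a mean of 65.4% in B cells and 6.47% in T cells. In Cd8b1 (chr6:71322538-71322787) the 5 CpGs had 94.6% and 3.33%. At Zbtb7b (chr3:89387672-89387921) 4 of the 5 CpGs were tested, with 75.7% and 92.9% in female and male B cells. No methylated read was seen there among 59 reads of female and 56 reads of male T cells, which allows a level of up to 5.09% and 5.36%.
Cd4 promoter: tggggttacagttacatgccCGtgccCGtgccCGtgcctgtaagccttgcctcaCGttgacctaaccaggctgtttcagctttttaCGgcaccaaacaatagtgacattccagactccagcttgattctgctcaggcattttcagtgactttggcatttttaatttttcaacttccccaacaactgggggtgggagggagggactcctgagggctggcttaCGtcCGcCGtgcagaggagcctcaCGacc
Cd8b1 promoter: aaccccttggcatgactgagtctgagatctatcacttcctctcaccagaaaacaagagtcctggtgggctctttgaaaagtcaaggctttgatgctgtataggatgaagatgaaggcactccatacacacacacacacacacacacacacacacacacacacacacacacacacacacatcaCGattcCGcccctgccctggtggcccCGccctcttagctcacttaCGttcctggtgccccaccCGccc
Zbtb7b internal promoter: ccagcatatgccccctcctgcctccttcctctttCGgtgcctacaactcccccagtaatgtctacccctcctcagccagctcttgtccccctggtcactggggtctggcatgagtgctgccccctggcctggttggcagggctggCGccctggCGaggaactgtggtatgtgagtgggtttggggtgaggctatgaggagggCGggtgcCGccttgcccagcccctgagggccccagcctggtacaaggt

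A further 4 stretches come from the called windows with the largest difference at their locus and in their direction, ranked by the lesser of the female and male values. The Cd4 stretch lies in the first kilobase of the gene, in an intron (chr6:124887482-124887599). Its 3 CpGs were at 100%, 4.08%, 100% and 2.70%. The Cd8a stretch lies downstream of the gene, outside any annotated exon (chr6:71387474-71387761), and its 7 CpGs were at 94.4%, 25.9%, 96.3% and 38.1%. The Runx1 pair shows that this gene held differences of both signs. In the first intronic stretch (chr16:92761516-92761705) 3 CpGs were at 88.5%, 5.88%, 93.1% and 3.13%, and in the second (chr16:92648845-92648985) 4 CpGs were at 5.66%, 89.9%, 10.6% and 80%.
Cd4 intron: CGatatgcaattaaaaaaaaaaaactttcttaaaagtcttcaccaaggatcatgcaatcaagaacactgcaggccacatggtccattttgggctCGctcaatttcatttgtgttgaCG
Cd8a downstream: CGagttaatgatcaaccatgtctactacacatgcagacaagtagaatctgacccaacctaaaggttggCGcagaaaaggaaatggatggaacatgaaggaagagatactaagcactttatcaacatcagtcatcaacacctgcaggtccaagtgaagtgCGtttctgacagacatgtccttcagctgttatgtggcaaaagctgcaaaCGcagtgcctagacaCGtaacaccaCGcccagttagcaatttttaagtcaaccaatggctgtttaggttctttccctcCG
Runx1 intron, higher in B cells: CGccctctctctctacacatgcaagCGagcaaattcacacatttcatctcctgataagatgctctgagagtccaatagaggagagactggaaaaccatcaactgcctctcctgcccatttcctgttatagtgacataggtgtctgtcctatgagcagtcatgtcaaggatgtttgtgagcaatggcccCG
Runx1 intron, lower in B cells: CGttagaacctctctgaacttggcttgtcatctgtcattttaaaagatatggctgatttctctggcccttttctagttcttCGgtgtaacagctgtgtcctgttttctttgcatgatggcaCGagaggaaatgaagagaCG

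To determine where the loci differed between B and T cells, reads were summed in windows of 1 kb with at least 3 CpGs. A window was called when its adjusted p-value was under 0.05 (quasi-binomial logistic regression on cell type and sex, Benjamini-Hochberg over all windows of the genome) and its mean difference reached 20 percentage points. Of 456 windows tested in the 6 loci, 70 (15.4%) were called. Across the genome 2.08% of the 2018320 windows tested were called, and 2.78% of those inside protein-coding loci with the same flanks. The level was higher in B cells in 60 of the 70 (13.2% of windows, against 1.16% of the genome) and lower in 10 (2.19%, against 0.913%). In 70 of the 70 called windows the female and male differences had the same sign and both B cell files lay on one side of both T cell files. The calls required a large mean difference in these same files, so this order is not separate support. The median absolute difference over the 456 windows was 3.49 points between cell types, 1.93 points between sexes in B cells and 1.95 points between sexes in T cells. Over all windows of the genome the corresponding medians were 2.26, 2.77 and 2.63 points. The cell type values average the female and male differences before their size is taken. Each sex value comes from a single pair of files, so the cell type and sex medians are not like measures.

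The called windows were spread unequally over the genes. Cd8b1 held 14 called windows of 33 (42.4%), Zbtb7b 9 of 37 (24.3%), Cd4 10 of 43 (23.3%) and Cd8a 5 of 25 (20%), and the level was higher in B cells in each of these. Under 20 points, windows lower in B cells also passed the p-value threshold, for example at -16.3 points in Cd4 and -16.1 points in Cd8a. Runx3 held 8 of 75 (10.7%), of which 4 were higher and 4 lower in B cells. Runx1 held 24 of 243 (9.88%), with 18 higher and 6 lower. B cells were at 80% or more in 45 of the 60 windows called higher in them. These windows were picked for a higher level in B cells, and the autosomal level of the female and male B cell files was itself 80.7% and 79.7%. By place, 59 of the 70 called windows overlapped the gene and 11 lay wholly in the flanks. By midpoint, 340 of the 456 tested windows and 56 of the 70 called ones lay inside the genes. Another 21 windows passed the p-value threshold with a difference of 15 to 20 points and were not called, and 15 were called with 20 to 25 points.

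**Figure D1:**
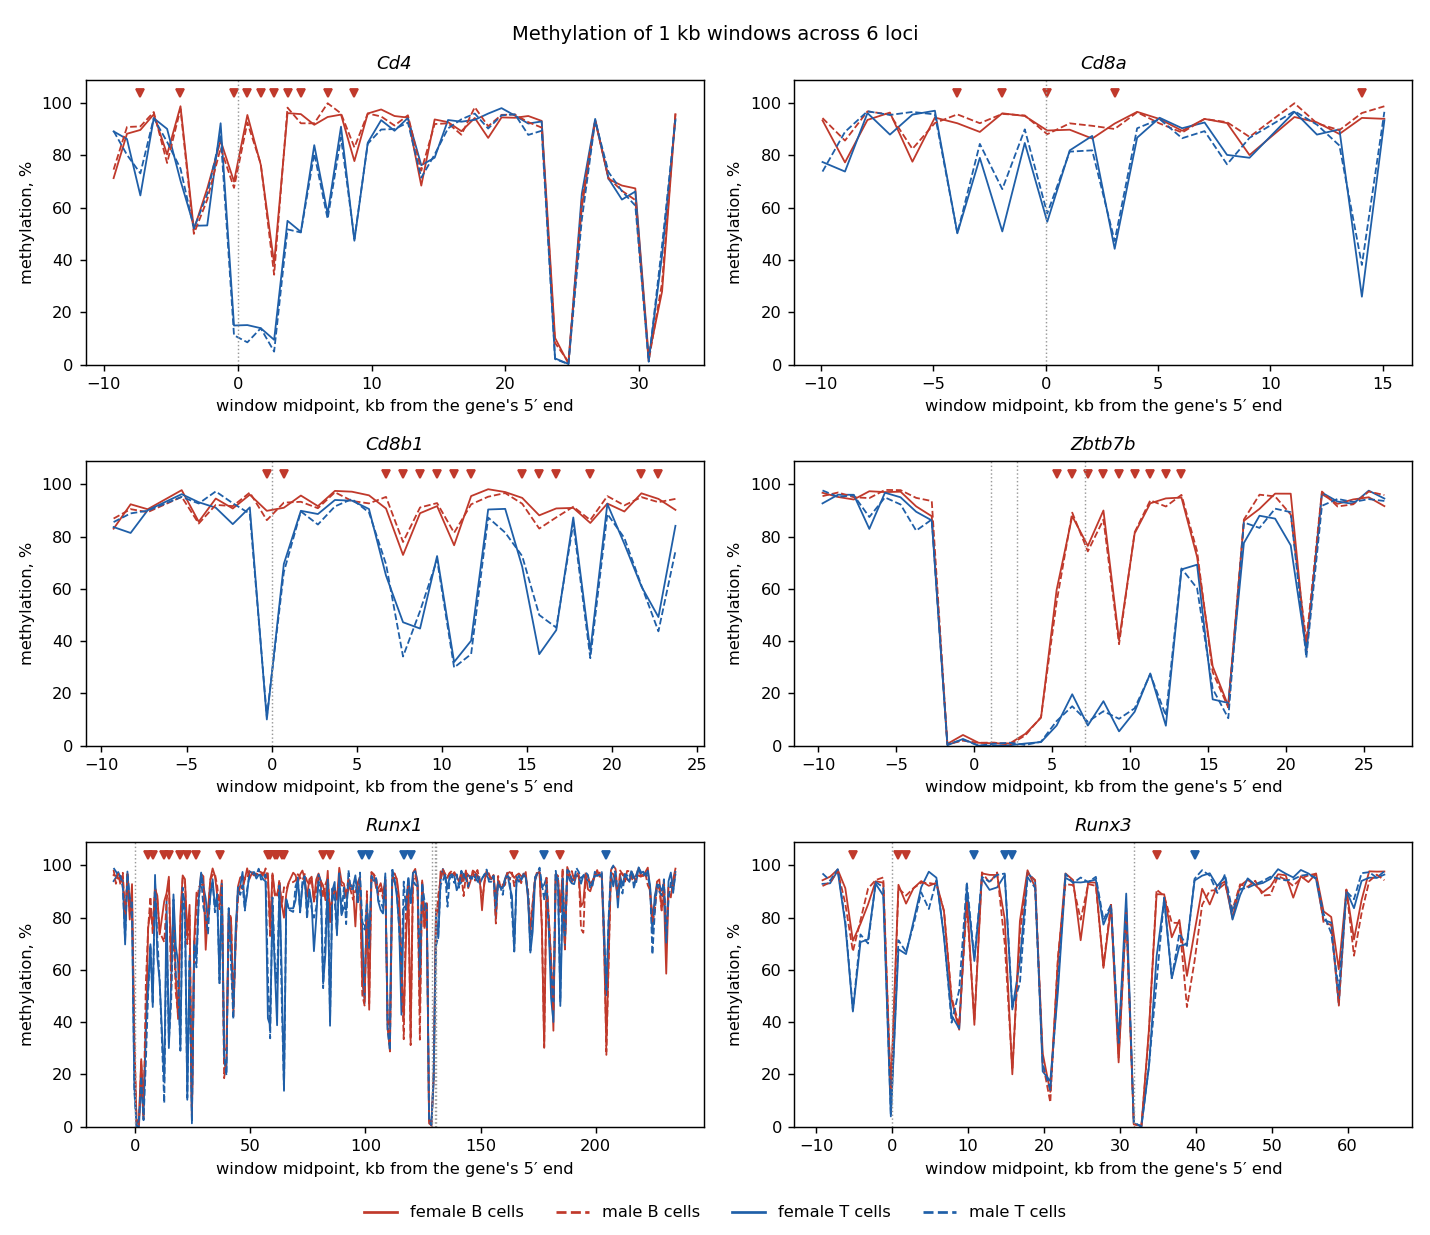
Methylation level (y axis, %) of each tested 1 kb window against the distance of its midpoint from the 5′ end of the gene (x axis, kb) in female and male B cells (red) and T cells (blue). Triangles mark called windows (red, higher in B cells; blue, lower in B cells) and dotted lines annotated starts. The T cell lines drop below the B cell lines around the start of Cd4, across Cd8b1 and inside Zbtb7b, where 9 windows in a row were called.

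**Figure D2:**
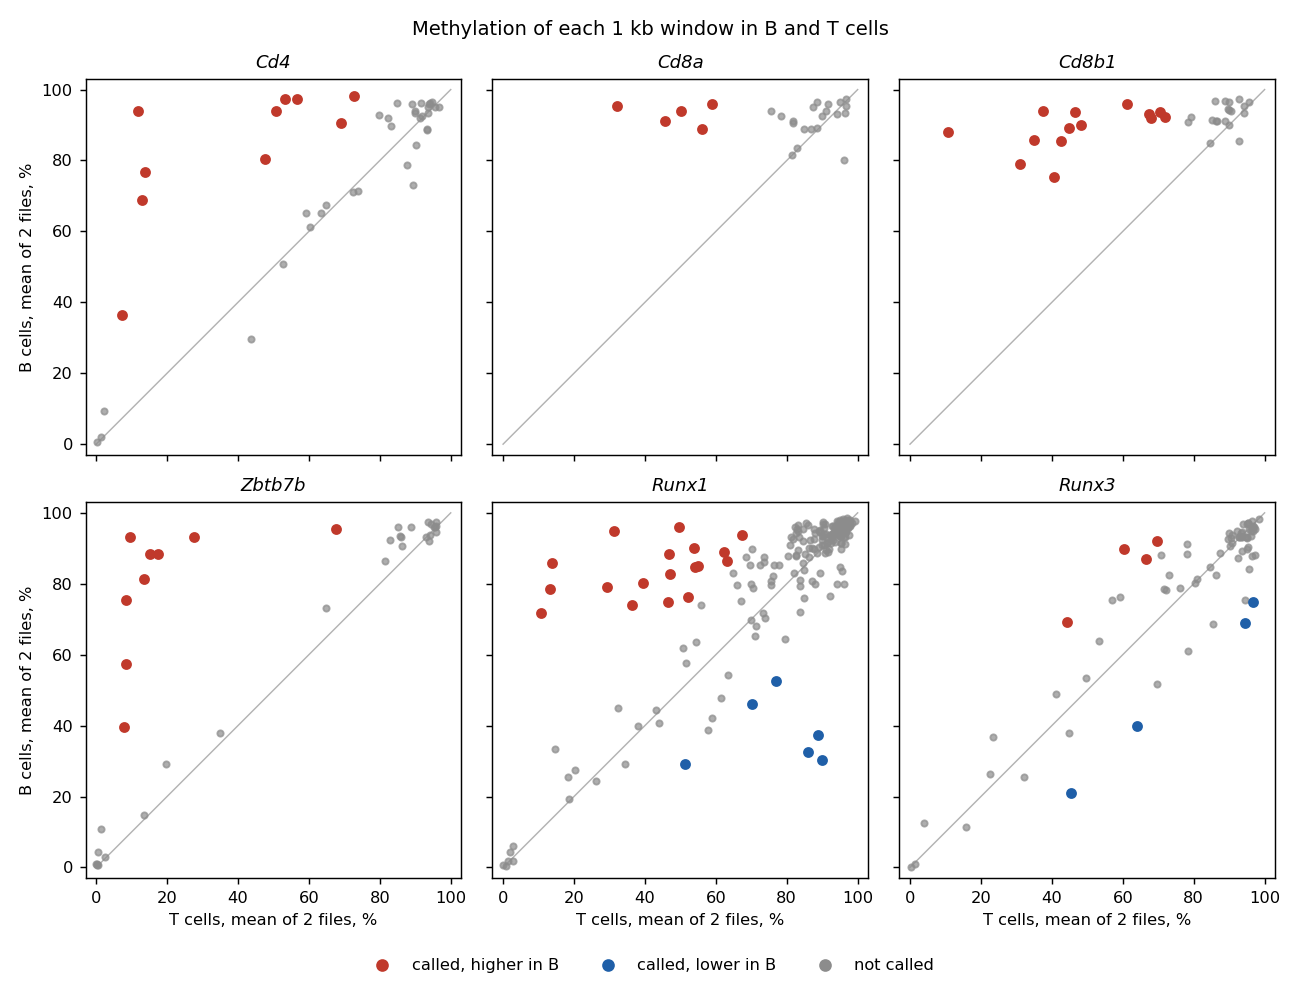
Mean level of each of the 456 windows in the 2 B cell files (y axis, %) against the 2 T cell files (x axis, %), by gene. Points above the diagonal are higher in B cells. Called windows lie only above it for the coreceptors and Zbtb7b, and on both sides for Runx1 (18 above, 6 below) and Runx3 (4 and 4).

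Cd4 (chr6:124864692-124888221, minus strand) was more methylated around its start in B cells than in T cells. The 4 successive CpGs from -21 to 84 bp around the start were low in all files, at 5.88% to 18.8% in female and 4.76% to 16.7% in male B cells, and the CpGs to either side of them were mostly high in B cells. Within 1 kb of the start, 24 CpGs were at 73.4%, 20%, 70.2% and 14.9%, a mean difference of 54.3 points (adjusted p = 8.72e-07 by the same model over 33204 starts). Both B cell files were far above both T cell files, and 22 of the 24 CpGs showed this order singly while 1 showed the reverse. Here and at the other starts, the order of the files and the counts of single CpGs use the reads of the test. They describe the starts and are not separate support, and no such counts were made over other starts of the genome. Across the genome 0.813% of starts were called higher in B cells.

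The difference reached into the first part of the Cd4 gene. Called windows filled 6 successive kilobases (chr6:124883001-124889000) at 74.6%, 24.4%, 74.95% and 20.95% over 76 CpGs. Of 34238 runs of called windows in the genome, 102 were as long or longer. Windows are placed here by their midpoint. Here and below, named windows were picked by the size of their difference. Counts of CpGs within them therefore describe the windows and are not separate support. The one 721 bp after the start was at 95.5%, 15.1%, 92.6% and 8.49%, with 6 of 6 CpGs higher in both B cell files. The next one into the gene was at 76.5%, 13.9%, 76.8% and 13.9%, and 19 of its 20 CpGs had that order. The window over the start itself was at 70.0%, 14.9%, 67.6% and 11.2%, in 17 of 17 CpGs. Within the run, B cells were lowest 2721 bp after the start, at 38.7% and 34.4%, and T cells there had 9.45% and 4.93%. The low stretch at a start was measured outward on each side until the summed reads of 5 successive CpGs were at 50% or more, so single CpGs below 50% can lie beyond its end. At Cd4 it was 21 bp long in both B cell files and 3663 and 3875 bp in female and male T cells, and with 30% in place of 50% it was 0 bp in B cells and 1503 and 1108 bp in T cells. Summed over the whole locus the level was 66.3%, 58.1%, 65.9% and 57.8%. The mean difference of 8.14 points was not called (adjusted p = 0.0675), and it ranked 262nd of 21624 loci. The locus also overlaps the neighbouring genes Gpr162 and P3h3. Without the flanks the difference was 16.3 points (adjusted p = 0.0135) and was called. With flanks and all 4 files it was also called when the model had no sex term (adjusted p = 0.0172). With the male B cell file left out, again without a sex term, it was 8.34 points.

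Cd8b1 (chr6:71322788-71337494, plus strand) differed at its start, in a run of windows from 6712 to 11712 bp after it and in 6 windows from 14712 bp on, with uncalled windows between them, in these T cells of the CD4 lineage. At its start 32 CpGs were at 89.98%, 40.6%, 89.8% and 38.5%, a difference of 50.3 points (adjusted p = 8.72e-07). Both B cell files exceeded both T cell files at 30 of the 32 CpGs and lay below them at 0. The start window, which overlaps the neighbouring gene Smyd1, was at 89.9%, 10%, 86.3% and 11.2% and had the lowest T cell level of the locus among called windows. The low stretch at this start was 0 bp in both B cell files, 933 bp in female and 1156 bp in male T cells. It was 491 bp in both T cell files at 30%.

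Further into Cd8b1, T cells had intermediate levels. In such bulk samples a share of cells without methylation and a share of alleles cannot be told apart. A run of 6 windows (chr6:71329001-71335000) was at a mean of 87.6% in B cells and 49.6% in T cells. The windows with the largest differences here, by the lesser of the sexes, were at 95.5%, 40.2%, 92.4% and 35.0% (11712 bp after the start) and at 85.2%, 36.2%, 86.3% and 33.5% (downstream of the gene, 18712 bp after the start). In the former 13 of 15 CpGs and in the latter 17 of 18 were higher in both B cell files. T cells were under 20% in 1 of the 14 called windows, and their median over the 14 was 45.6% against 91.1% in B cells. Over the whole locus the level was 91.3%, 71.0%, 91.0% and 69.8%. The mean difference of 20.7 points was called (adjusted p = 0.0244) and ranked 20th, but did not pass with the female or the male T cell file left out (adjusted p = 0.0748 and 0.0799). Across the genome 0.375% of protein-coding loci were called higher in B cells.

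Cd8a (chr6:71373427-71379173, plus strand) had 5 called windows, which differed by 32.6 to 63.3 points and of which the one over the start had the 32.6 points. Within 1 kb to either side of the start 37 CpGs were at 89.5%, 67.0%, 90.3% and 70.9%, a difference of 20.9 points (adjusted p = 6.48e-05) that stood just over the 20 points required for a call. It was not called with the female T cell file left out, where it was 18.97 points, or with the male B cell file left out, where it was 20.5 points but had an adjusted p of 0.0584. Within 500 bp of the start it was 34.5 points. The groups did not overlap, and 22 of the 37 CpGs were higher and 4 lower in both B cell files. The low stretch was 0 bp in B cells and 154 and 181 bp in T cells. The largest difference of the locus was outside the gene, 14073 bp after the start, where 7 of 7 CpGs were higher in both B cell files. A window 3073 bp after the start was at 92.2%, 44.3%, 90.2% and 47.3%, with 19 of 20 CpGs in that order. Another one, at -3927 bp from the start and within the noncoding gene Gm44174, was at 92.3%, 50.2%, 95.7% and 50.2%, in 8 of 10 CpGs. The locus as a whole was at 91.6%, 75.02%, 92.5% and 77.7%. This difference of 15.7 points was called (adjusted p = 0.0434) and ranked 50th. It did not pass with either T cell file left out (adjusted p = 0.122 and 0.114).

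Cd8a and Cd8b1 are neighbours on chromosome 6, and the interval between their loci (chr6:71347495-71363426), which belongs to neither, was at 90.8%, 72.5%, 90.3% and 76.6%. Of its 16 windows 5 were called, higher in B cells by 32.6 to 42.5 points, and 0 were called lower.

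Zbtb7b (chr3:89377644-89394776, minus strand) combined starts that were unmethylated in both cell types with an internal start that was not. At the first start of its protein-coding transcripts (position 89393678) 76 CpGs were at 0.962%, 0%, 1.04% and 0.312%. The 0 of 1270 reads in female T cells allows up to 0.236%. At the next start (position 89392069) 83 CpGs were at 2.07%, 0.351%, 1.42% and 0.776%. Neither was called (adjusted p = 0.159 and 0.198). The start of the transcripts Zbtb7b-203 and Zbtb7b-204, 7105 bp into the gene (position 89387671), was at 84.7%, 11.7%, 82.0% and 9.17%. This difference of 72.9 points was the largest of the 12 annotated starts (adjusted p = 7.32e-08), and 33 of its 34 CpGs were higher in both B cell files.

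The low stretch holding the first of these starts was 6596 bp long in both B cell files and 15057 bp in both T cell files, and in T cells all 3 starts shared it. With 30% in place of 50% it was 6550 bp in B cells, 8544 bp in female and 11503 bp in male T cells, and in female T cells the internal start then lay outside it, in a stretch of its own of 3326 bp. Called windows filled 9 successive kilobases (chr3:89381001-89390000) at 82.9%, 25.8%, 82.0% and 25.4% over 128 CpGs, and 31 runs in the genome were as long or longer. T cells were under 20% in 7 of these 9 windows. The one with the largest difference by the lesser of the sexes, an intronic window 12276 bp after the 5′ end of the gene, was at 94.6%, 7.62%, 91.5% and 11.5%, and 11 of 11 CpGs were higher in both B cell files. Windows at 8276 bp and 6276 bp had 13 of 13 and 12 of 12 CpGs in that order, with differences of 73.2 and 71.1 points. B cells were not uniformly high across the run. Their level was 40.4% and 38.8% in the window 9276 bp after the 5′ end, against 5.46% and 10.3% in T cells. Over the whole locus the level was 52.5%, 38.7%, 52.3% and 40.02%, a called difference of 13.1 points (adjusted p = 0.0436, rank 72), or of 20.4 points without the flanks (adjusted p = 0.00842). With flanks it did not pass with either T cell file left out (adjusted p = 0.121 and 0.114).

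**Figure D3:**
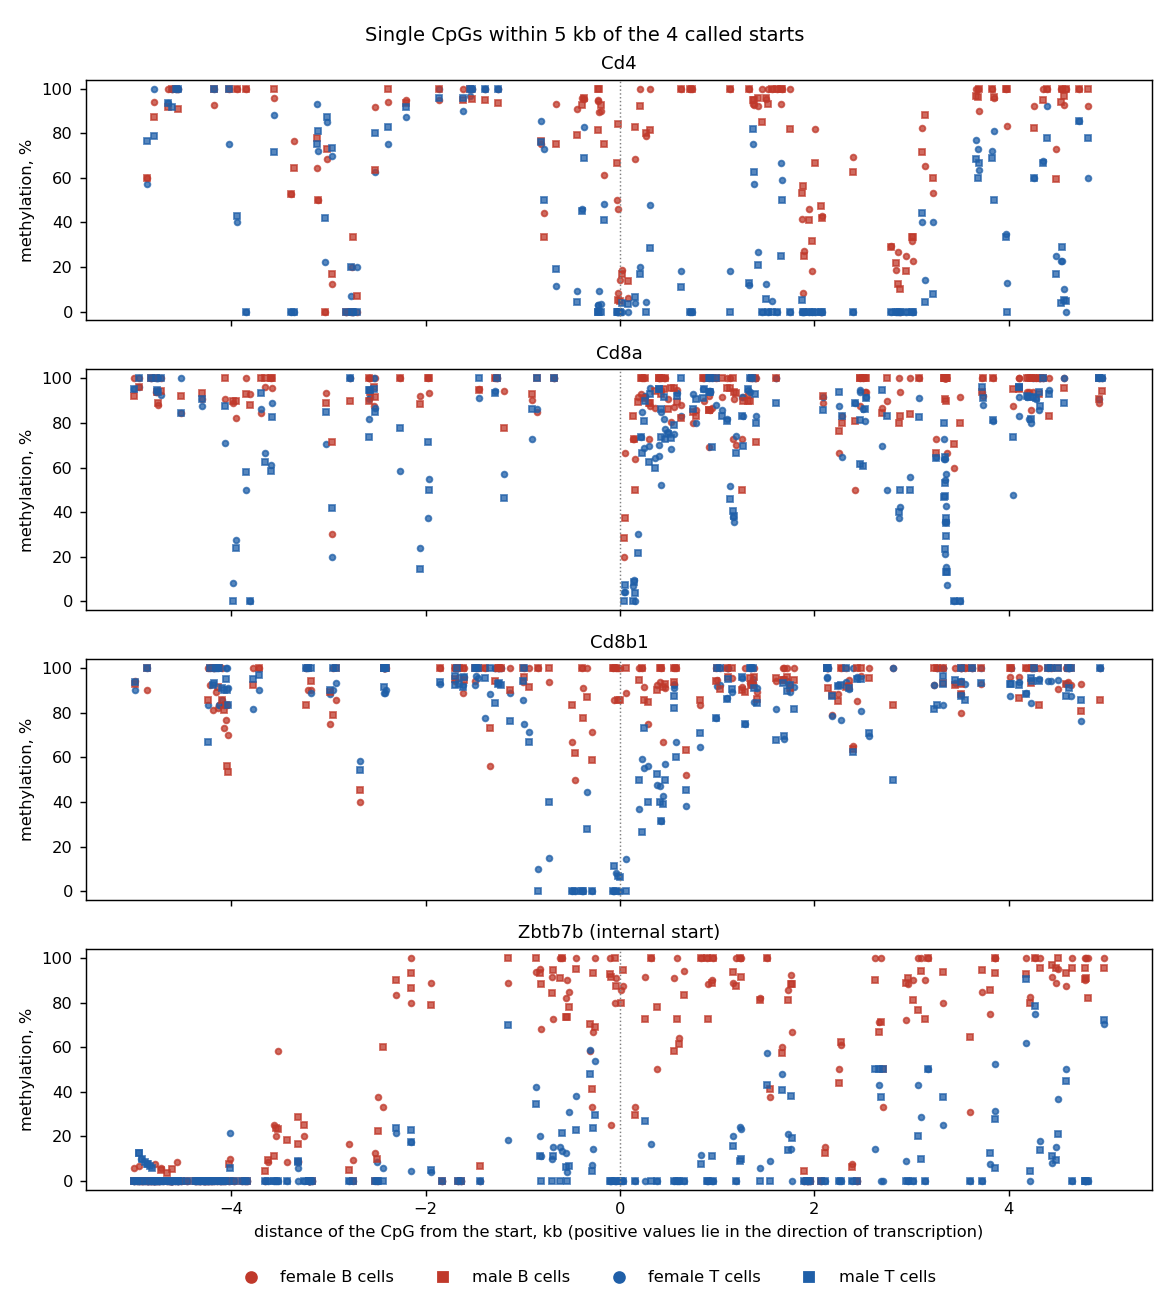
Methylation level of single CpGs (y axis, %) within 5 kb of the 4 called starts (x axis, kb in the direction of transcription) in B cells (red) and T cells (blue), with circles for female and squares for male files. In T cells low CpGs extend 3218 bp into Cd4 until 5 successive CpGs reach 50%, cluster before the Cd8b1 start and cover both sides of the internal Zbtb7b start, while B cell CpGs there are mostly high.

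Runx1 (chr16:92601466-92826149, minus strand) has a distal and a proximal promoter 128821 bp apart, and neither was called. Around the distal start 36 CpGs were at 12.97%, 7.43%, 14.6% and 7.70%. The mean difference of 6.22 points had an adjusted p of 0.0444 but was under the 20 points required. The proximal start was at 0.390%, 0.845%, 0.394% and 0.661% over 115 CpGs (adjusted p = 0.449). Of the 2 remaining starts, the one at position 92696125 differed in opposite directions in the sexes and was not called (47.6%, 49.8%, 51.6% and 44.8%, adjusted p = 0.668). The one at position 92695495 was at 84.5%, 79.97%, 80.8% and 69.8%, a difference of 7.79 points (adjusted p = 0.0200) that was likewise under the threshold.

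The 24 called windows of Runx1 all lay in introns, and their direction differed along the gene. In the first 90 kb after the distal start 16 of 88 windows were higher in B cells and 0 lower. Between there and the proximal start 0 of 39 were higher and 4 lower, and beyond the proximal start 2 of 106 were higher and 2 lower. The point at 90 kb was chosen after the values were seen, so this is a description without a test. Across the genome 1.16% of windows were called higher and 0.913% lower in B cells, beside which the few calls beyond the proximal start say little. With limma on log2 ratios 13 of the 24 were called, 10 higher and 3 lower in B cells. The windows higher in B cells with the largest differences, by the lesser of the sexes, were 64649 bp after the distal start (80%, 13.8%, 91.7% and 13.9%), 14649 bp (95.7%, 30.1%, 94.3% and 32.4%) and 12649 bp (86.3%, 17.5%, 70.7% and 9.05%). All 5, 9 of 12 and all 10 of their CpGs were higher in both B cell files. Lower in B cells were the windows at 177649 bp (30.2%, 92.7%, 30.4% and 87.1%), 119649 bp (33.9%, 86.9%, 31.3% and 84.9%) and 116649 bp (41.0%, 83.9%, 33.5% and 93.8%). Of their 7, 11 and 13 CpGs, 6, 11 and 12 were lower in both B cell files. Across the locus, in which 24 of 243 windows were called, the mean difference was 3.09 points (80.4%, 77.5%, 80.6% and 77.3%), which was not called (adjusted p = 0.0664).

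Runx3 (chr4:135120652-135177990, plus strand) had 8 called windows, 4 higher and 4 lower in B cells, none of which differed by more than 29.6 points. Its distal start was at 56.6%, 38.8%, 57.7% and 40.2% over 36 CpGs. The groups did not overlap and the adjusted p was 0.00123, but the difference of 17.7 points was under the 20 required. A total of 20 CpGs were higher and 0 lower in both B cell files. The proximal start, 31844 bp further on, was at 11.7%, 11.7%, 11.5% and 10.6% over 165 CpGs, and was not called (adjusted p = 0.873). The windows called higher in B cells lay at -5152 bp from the distal start, 848 and 1848 bp after it and 34848 bp after it, and differed by 20.4 to 29.6 points. Those called lower lay 10848, 14848, 15848 and 39848 bp after it, and differed by -25.5 to -21.8 points. The example nearest to the proximal start was at 89.0%, 65.2%, 90.8% and 55.3%, and the intronic window at 15848 bp was at 20.1%, 44.9%, 21.8% and 45.7%. In the latter window 11 of 17 CpGs were lower and 1 higher in both B cell files. With limma 2 of the 8 windows were called, both lower in B cells. The whole locus was at 69.1%, 66.5%, 68.1% and 65.6%, a difference of 2.58 points (adjusted p = 0.164), or 0.962 points as a mean over CpGs in place of reads. The median over all protein-coding loci was 0.441 points with reads summed.

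**Figure D4:**
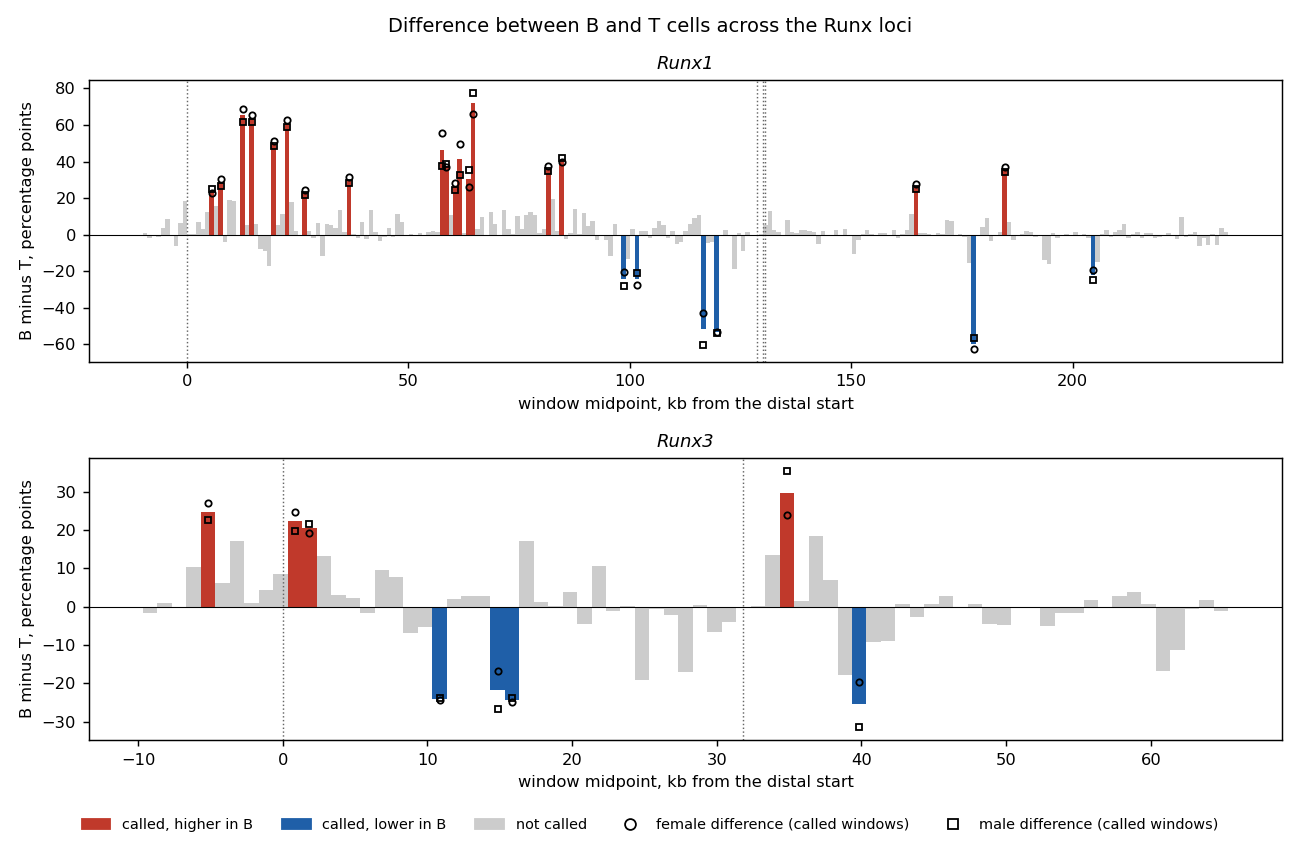
Difference in methylation between B and T cells (y axis, B minus T, percentage points, mean of both sexes) of each 1 kb window across Runx1 and Runx3 against the distance from the distal start (x axis, kb). Bars of called windows are coloured, open circles and squares give their female and male differences, and dotted lines mark annotated starts. In Runx1 the 16 called windows of the first 90 kb all rise above 0.

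**Figure D5:**
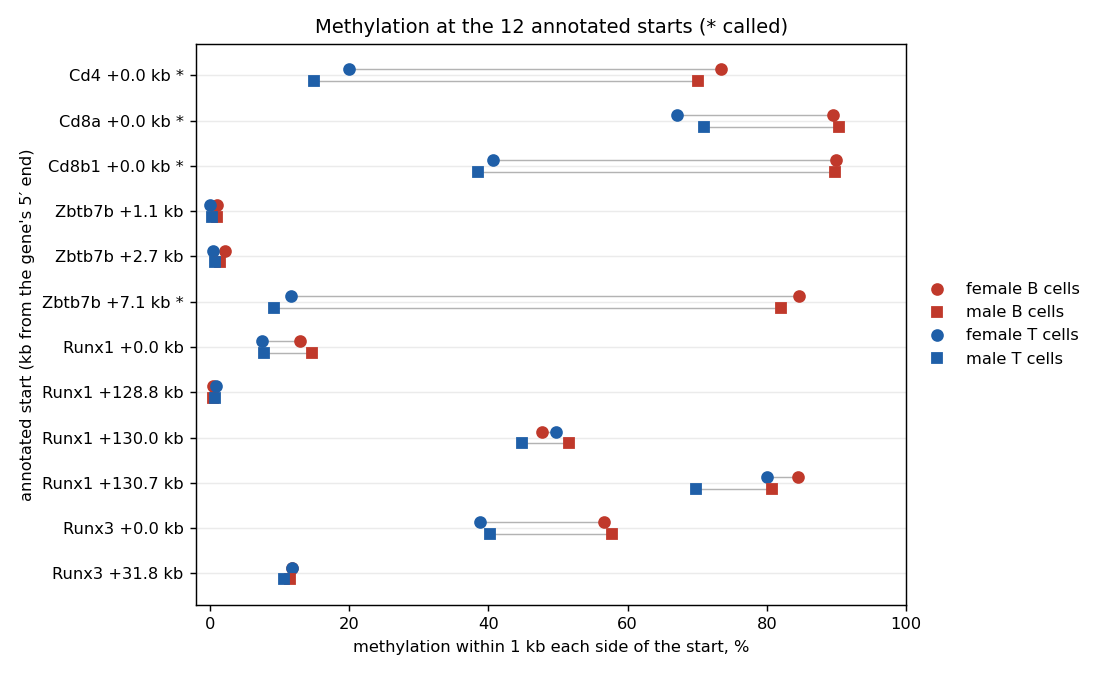
Methylation level (x axis, %) within 1 kb of each of the 12 annotated starts (y axis, named by gene and distance from its 5′ end) in female (circles) and male (squares) B cells (red) and T cells (blue), with a line joining B and T cells of one sex. Asterisks mark the 4 called starts. At the proximal Runx3 start the female B cell point lies under the female T cell point.

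Ordered by the size of their largest start difference, the genes ran Zbtb7b (72.9 points), Cd4 (54.3), Cd8b1 (50.3), Cd8a (20.9), Runx3 (17.7) and Runx1 (7.79). Among neighbours in this order, the female and male differences were 53.4 and 55.2 points for Cd4 and 49.4 and 51.3 for Cd8b1, and 22.5 and 19.4 points for Cd8a and 17.8 and 17.6 for Runx3. Neither pair of ranges overlapped, but the gap between them was of the order of the range within a gene, and differences between genes were not tested. The order also depended on the region, since within 500 bp of the start the differences were 63.7 points for Cd8b1, 63.5 for Zbtb7b and 56.1 for Cd4. The low stretch ended at 50% was longer in both T cell files than in both B cell files at 7 of the 12 starts and longer in both B cell files at 0. Stretches were not measured at other starts, so there is no share over the genome beside these counts. The 7 include the 4 called starts, where a longer stretch in T cells goes with the call. The 3 starts of Zbtb7b among the 7 share a stretch in T cells.

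Females and males were compared with the sex term of the same model. Of the 456 windows 0 were called, where 0.0755% of windows were called across the genome. At an unadjusted p under 0.05 there were 29 windows by the model and 13 by limma, which also called 0. No share over the genome stands beside these unadjusted counts.

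RUNX proteins bind TGTGGT, and this motif was counted on either strand. It was present in 45 of the 70 called windows (64.3%), in 55.5% of the 456 windows of the loci, in 53.6% of all windows tested and in 63.7% of all called windows. By direction it was present in 58.3% of the windows higher and in 10 of the 10 windows lower in B cells. Those 10 windows all lay in introns of Runx1 and Runx3. The motif was not counted by direction over the genome, so no matching share stands beside this split. A match says only that these letters are present.

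Other genes of the CD4 and CD8 choice, and of the helper and cytotoxic programmes, were listed for comparison, 20 in all. These genes were chosen with earlier results of these data known. Of their 38 starts, 9 were called higher in B cells, in 5 genes, and 0 lower, where 0.813% of all starts were called higher. Satb1, a chromatin organiser of thymocytes, had 4 of these, with means of 94.8% in B cells and 0.633% in T cells at the one that differed most. Themis, a signalling protein needed for the maturation of thymocytes, was at a mean of 84.0% and 0.350%. Lck, the kinase bound by both coreceptors, had 2 called starts, at means of 69.6% and 18.1% and of 43.0% and 6.47%. Patz1, a zinc finger factor of the same family as ThPOK, was at means of 74.1% and 28.7% at its called start. Its other starts were at means of 1.40% and 2.04% and of 0.16% and 0.29%, and were not called. Cd40lg, the helper ligand, lies on the X chromosome and was at 88.1%, 47.5%, 86.9% and 4.05%, so that its T cell level was higher in females than in males.

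By windows, 457 of 1853 (24.7%) in these 20 loci were called, 427 higher and 30 lower in B cells. Over all protein-coding loci with the same flanks 2.78% of windows were called. Among the 20 whole loci 8 were called higher in B cells, namely Tox, Satb1, Tcf7, Lef1, Bcl11b, Lck, Ets1 and Ikzf1. The share of all protein-coding loci called higher was 0.375%. The whole-locus difference exceeded that of Cd8b1 at 6 of the 20. It was 35.1 points at Cd40lg, which encodes the CD40 ligand of helper T cells and was not called (adjusted p = 0.0812). The other 5 were called, namely Tcf7 (32.7 points), Satb1 (27.4 points), Lef1 (25.6 points), Bcl11b (24.1 points) and Ets1 (22.1 points), all factors of T cell development. Of the genes of the cytotoxic programme, Eomes held 0 called windows of 27, Tbx21 1 of 36, Prf1 2 of 26 and Gzmb 1 of 18. These were 0%, 2.78%, 7.69% and 5.56% of windows, beside the 2.78% over all protein-coding loci. Counts this small say little about single genes. Runx2, a further member of the Runx family, held 12 windows higher and 10 lower in B cells of 324, and its whole-locus difference was -0.368 points (adjusted p = 0.660).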

How the data were processed

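Whole-genome bisulfite files of 4 groups were analysed, 1 per group. Per CpG, the authors deposited a fraction (methylated over all reads, 3 decimals) and the count of reads covering it. The submitters' notes name Trim Galore, FastQC, Bismark 0.13.1 and mm10, without roles. Duplicate removal and conversion rates are not given in the sources used here. Although the labels mention an oxidised part of each sample, the names of the files point to unoxidised libraries.

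Methylated reads were recovered as fraction times coverage. Positions were shifted by 1, after which all 18714703 CpGs shared by the 4 files were CG in GRCm38. Windows, annotated starts (1 kb to either side, starts of a gene within 500 bp merged) and whole loci were each fitted genome-wide by quasi-binomial logistic regression on cell type and sex (Python 3.11.15). Dispersions were squeezed with limma 3.58.1 (squeezeVar) under R 4.3.3, with a prior from features of at least 5 expected reads of each kind per file, chosen after another prior had been tried, and tested on simulated data. Whole loci were called at 5 points, windows and starts at 20. The windows' prior degrees of freedom were infinite, so their p-values (1.03e-108 to 1.98e-09 for the named windows) rest on the average spread between files and not on that of the window. Wilson 95% intervals reached at most 1.28 points to either side for loci, 4.32 for starts and 9.94 for named windows, and cover counting error only. Windows of the loci had 25 to 2373 reads per file (median 213).

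The members, lists and tests were chosen with earlier results of these data known. One of the B cell genes chosen to check the labels is not reported here, for a reason unrelated to its values. Named windows were up to 3 called ones per locus and direction, ranked by the lesser of the differences in the 2 sexes. Printed sequences lie in the first of these or before a called start, and those in exons or without tested CpGs, and the Zbtb7b window and the Runx3 stretches, were left out. Alternatives were other coverage minimums, window sizes, thresholds and priors, no sex term, limma on log2 ratios (pseudocount 1), Fisher's exact test in each sex, no flanks and leaving out each file. Fits that left out a file had no sex term.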

Additional observations from a re-analysis of the deposited data

Results flagged for a closer look

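At 2 of the 12 annotated starts the B minus T difference had opposite signs in females and males. At the Runx1 start at position 92696125 the female files gave -2.12 points and the male files 6.76 points. At the proximal Runx3 start these values were -0.0277 and 0.883 points. The difference between the sexes was not tested at either start, and neither start was called between the cell types.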

How the results depend on the processing

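The direction of each whole-locus difference and of each of the 24 named windows held under every alternative run for them. At a threshold of 10 points the 70 called windows became 120, of which 93 were higher and 27 lower in B cells. At 30 points they became 45 (42 higher and 3 lower). There were 124 with 500 bp windows and 39 with 2 kb windows, which changes how many windows there are. Leaving out each file gave 68 to 77 called windows, of which 66 to 69 were among the 70. With limma 48 were called, with 10 reads per CpG 70, without flanks 56, and without windows that overlap another annotated gene, chosen after seeing the data, 64. Fisher's exact test in each sex called the same 70.

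The 4 called starts stayed called under a prior from all starts, no sex term, limma, Fisher's test and regions of 500 bp. The Cd8a start was lost with 10 reads per CpG and without the female T or the male B cell file (3 called), and the distal Runx3 start was added at 10 points (5 called). Leave-one-out fits gave 3 to 4 called starts.

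For whole loci, Cd4 was called without flanks (16.3 points), with 10 reads per CpG (9.74 points, adjusted p = 0.0129) and without a sex term (8.14 points, adjusted p = 0.0172). Its range over the leave-one-out fits, which had no sex term, was 7.94 to 8.34 points. Without female or male T cells none of the 6 whole loci passed. The ranges were 14.4 to 17.1 points for Cd8a, 20.1 to 21.3 for Cd8b1 (adjusted p = 0.0748 and 0.0799 without a T cell file) and 12.4 to 13.8 for Zbtb7b. In those fits the lone T cell file is assumed to vary like the other files. The mean over CpGs in place of reads gave 7.68 points for Cd4, 13.3 for Cd8a, 21.6 for Cd8b1 and 0.962 for Runx3. The cause was not tested. With the stretch ended at 30%, 8 starts had a longer one in T cells.

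Of the 24 named windows, 5 of the 6 of Runx3 were not called by limma, 3 fell under 20 points with 10 reads per CpG and 1 without male B cells, all of them in Runx3. No paired analysis was possible because each group has 1 file and the groups share no replicate number in the labels, while the sex term already sets B against T cells within each sex. With 1 file per group and 1 residual degree of freedom, differences between pools of one kind could not be measured.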
